A study of Mus musculus with 16 samples.

Results

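The genes described here are 8 genes of cholesterol synthesis, *Srebf2*, *Hmgcs1*, *Idi1*, *Fdft1*, *Sqle*, *Lss*, *Cyp51* and *Dhcr7*, in the seminal vesicles (SV) of 5-week-old mice. They were chosen by name as sterol genes listed in the expression table, and all 8 were found among its 31274 genes and among the 15988 that were tested. None of the 8 takes up cholesterol, so uptake genes are described from a separate list. RNA-seq was made from the SV of male C57BL/6 mice in 4 groups of 4 samples each. WT-veh are wild-type mice that received corn oil under the skin on days 1 to 5 of life, and WT-DES are wild-type mice that received DES (diethylstilbestrol, a synthetic oestrogen) in corn oil at 2 µg per pup per day on the same days. αERKO-veh and αERKO-DES are mice without oestrogen receptor α (ERα, encoded by *Esr1*) in any tissue, given corn oil or the same DES. The comparisons ask whether neonatal DES left a difference at puberty and whether that difference needed ERα.

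2 features of the groups limit them as models. The αERKO mice came from heterozygous parents and the WT pups from purchased pregnant females, so genotype and colony cannot be told apart. The study's account of RNA extraction gives single mice for 3 groups and 3 pools of mice for WT-DES, while the table holds 4 WT-DES samples, so the p-values measure the spread between these samples, whose independence in WT-DES is not known.

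Cholesterol is made from acetyl-CoA through mevalonate, isoprenoid units, squalene and lanosterol. When the sterol content of the endoplasmic reticulum falls, SCAP carries the precursor of SREBP2, the product of *Srebf2*, to the Golgi, where it is cut, and the freed part enters the nucleus and raises transcription of most enzymes of the pathway. When cells are rich in sterols, INSIG proteins retain SCAP, and oxysterols activate the LXR receptors, which raise the genes of cholesterol export. The SV is a gland whose epithelium makes the bulk of the proteins of the seminal plasma under androgen control.

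Promoter sequence is given here for *Hmgcs1*, which did not fall after DES in WT, beside *Srebf2*, *Idi1* and *Cyp51*, which did on the deposited scale. Of the 8 genes, 6 had a promoter in the RefSeq table on GRCm38.p6 (8 windows, because *Dhcr7* has 3 starts), and *Sqle* and *Fdft1* had no entry. Each window runs 5′ to 3′ on the gene's own strand and holds 250 bases before the start of transcription and 50 bases from it on. Capitals mark matches on either strand to TCACNCCAC, a form of the sterol response element bound by SREBPs, or to CCAAT, the box bound by NF-Y, a factor known to act with SREBPs. The windows lie at chr13:119690101-119690400 (plus strand, *Hmgcs1*), chr15:82147019-82147318 (plus strand, *Srebf2*), chr13:8885356-8885655 (plus strand, *Idi1*) and chr5:4104648-4104947 (minus strand, *Cyp51*).
Hmgcs1: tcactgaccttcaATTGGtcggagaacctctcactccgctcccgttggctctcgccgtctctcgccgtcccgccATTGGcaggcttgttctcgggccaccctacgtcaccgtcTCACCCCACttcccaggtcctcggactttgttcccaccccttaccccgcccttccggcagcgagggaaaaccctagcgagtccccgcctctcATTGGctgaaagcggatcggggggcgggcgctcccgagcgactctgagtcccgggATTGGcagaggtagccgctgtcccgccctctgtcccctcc
Srebf2: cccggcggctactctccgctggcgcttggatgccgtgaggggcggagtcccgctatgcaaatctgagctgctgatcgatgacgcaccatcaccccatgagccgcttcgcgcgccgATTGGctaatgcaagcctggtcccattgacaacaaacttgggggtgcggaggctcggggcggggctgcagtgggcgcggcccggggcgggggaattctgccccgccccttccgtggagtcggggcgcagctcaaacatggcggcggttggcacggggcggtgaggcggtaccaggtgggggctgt
Idi1: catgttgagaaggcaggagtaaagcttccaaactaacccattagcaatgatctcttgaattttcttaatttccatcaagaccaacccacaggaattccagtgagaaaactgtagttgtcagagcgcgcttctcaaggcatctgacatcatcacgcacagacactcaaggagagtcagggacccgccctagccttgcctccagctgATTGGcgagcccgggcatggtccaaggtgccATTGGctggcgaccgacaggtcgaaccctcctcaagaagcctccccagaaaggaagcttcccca
Cyp51: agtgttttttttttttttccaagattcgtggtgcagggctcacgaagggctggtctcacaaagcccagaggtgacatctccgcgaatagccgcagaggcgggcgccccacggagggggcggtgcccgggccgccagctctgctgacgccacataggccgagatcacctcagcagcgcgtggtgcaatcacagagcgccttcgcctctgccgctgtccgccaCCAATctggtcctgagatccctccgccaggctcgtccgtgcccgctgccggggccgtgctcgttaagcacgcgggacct

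In the *Hmgcs1* window, TCACCCCAC stands at bases 114 to 122, and CCAAT has 4 matches, all on the other strand, where it reads ATTGG. TCACNCCAC was found in 1 of the 6 genes, *Hmgcs1*, and in 1.24% of all 32851 promoter windows. CCAAT was found in all 6 genes with a promoter, in 6 of their 8 windows, and in 37.4% of all windows. *Srebf2* has 1 match and *Idi1* 2 matches to CCAAT on the other strand, and *Cyp51* has 1 on its own strand. The E-box CACGTG was found in 1 *Dhcr7* window and in 7.15% of all windows. No match of these motifs overlapped another. These matches describe letters in the windows only. Exact matches alone were counted, so a window without one may still hold a variant of the motif.

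Values are FPKM (fragments scaled to transcript length and to the fragments mapped), a level that is already per length, and changes are differences of log2(FPKM + 1) with their standard error (SE) from limma, adjusted by Benjamini-Hochberg over the 15988 genes tested. A gene passed the test at an adjusted p of at most 0.05, and was called where the ratio of mean FPKM was also at least 1.5. Depth is not known from FPKM, so precision rests on the spread between samples. *Esr1*, which checks the labels, lay between 2.81 and 4.55 FPKM for WT-veh and between 8.74 and 19.6 for WT-DES. Without the receptor it lay between 1.30 and 1.75 for vehicle and between 0.91 and 1.64 for DES. The SV secretion genes that define the tissue (*Svs1* to *Svs6* and *Pate4*) summed to 46166 to 54055 FPKM in WT-veh and 2372 to 7708 in WT-DES.

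1 library stands apart for the sterol genes. WT-DES sample 1 was the highest of its group for all 8 of them, at a median of 1.75 times the mean of the other WT-DES samples, and it was the highest of its group for 39.2% of all tested genes. It was also the highest for 8 of 12 other enzymes of the pathway. The changes of the 8 genes and the counts of the pathway and marker lists after DES in WT are therefore given with and without it. In the other groups, WT-veh sample 4 was highest for 7 of 8, αERKO-veh sample 3 for 8 of 8 and αERKO-DES sample 3 for 7 of 8. The shares of all tested genes highest in these samples were 31.3%, 26.4% and 21.5%.

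The scale of the table also bears on every comparison with WT-DES. The sum of all FPKM was 375207 to 437619 in WT-DES and 479045 to 652708 in the other groups. When samples were rescaled to equal totals without the 20 most abundant genes, the median of all genes rose by 0.39 in WT-DES relative to WT-veh, against a median of −0.01 as deposited. The same step shifted that median by −0.34 for αERKO-DES relative to WT-DES, 0.51 for the difference in the change with DES between genotypes, 0.14 between the vehicle genotypes and −0.10 for DES in αERKO, and median-ratio scaling shifted it by 0.11 for the difference between genotypes. Ratios between genes within a sample do not change when a library is scaled by 1 factor.

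**Figure D1:**
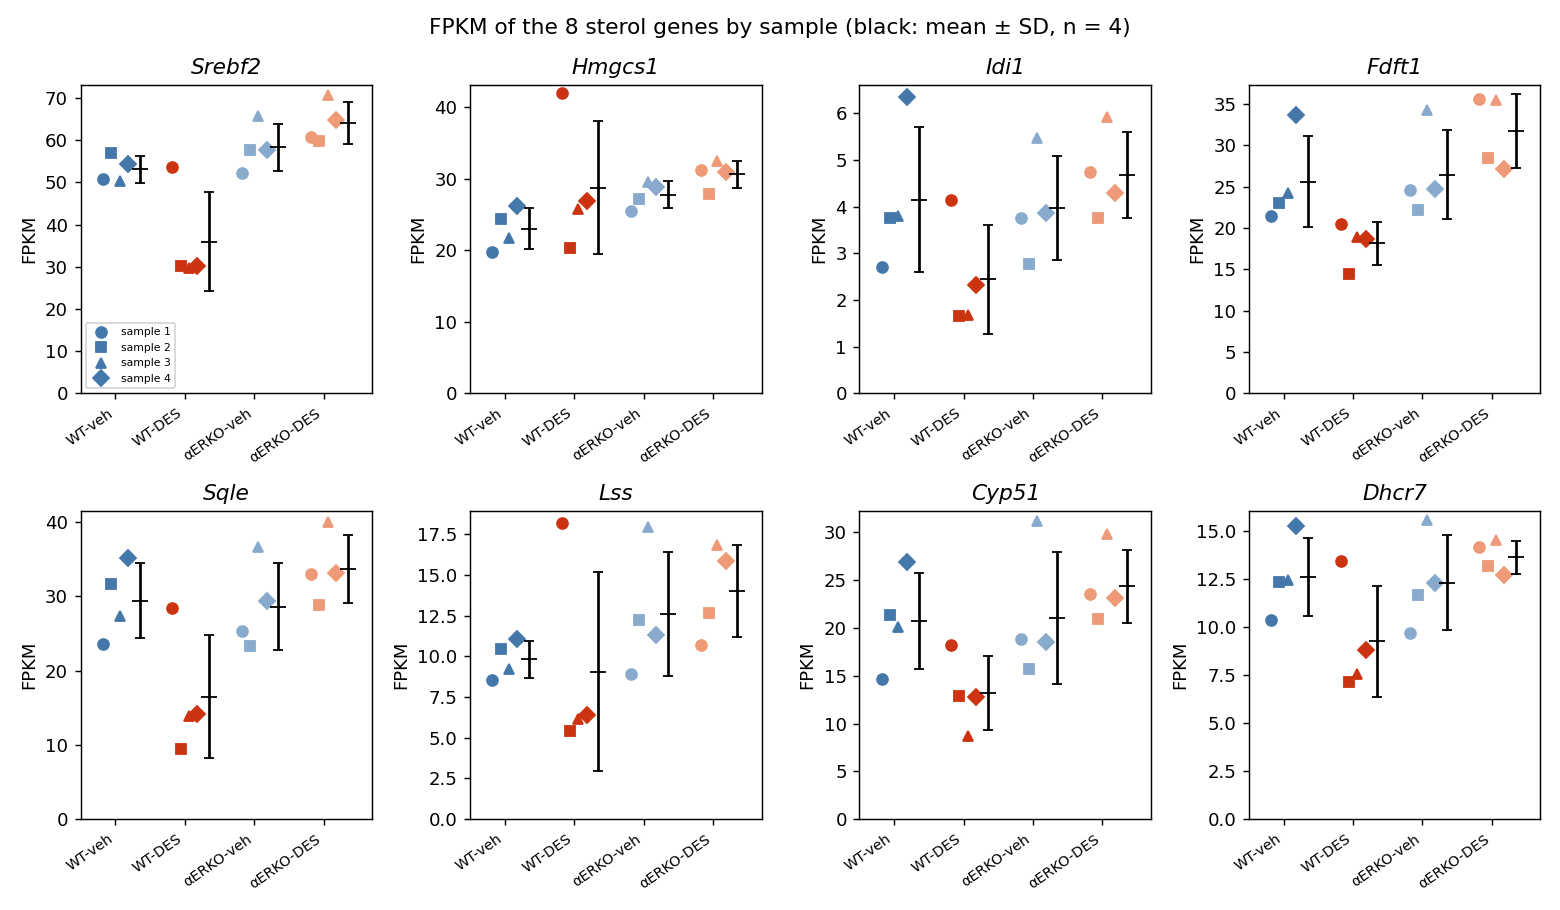
FPKM (vertical axis) of each of the 8 genes in the 16 samples, by group, with a marker shape for each sample number and the mean ± SD (n = 4) in black. WT-DES sample 1 (circle) lies above the other WT-DES samples in every panel.

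After DES in WT mice, *Srebf2*, *Idi1*, *Fdft1*, *Sqle*, *Cyp51* and *Dhcr7* fell, while *Hmgcs1* and *Lss* did not pass the test. The fall passed the test in 6 of 8 genes, against 37.3% of all genes tested that passed it in this direction. With the 1.5-fold limit, 3 of 8 were called lower (*Sqle*, *Cyp51* and *Idi1*), against 23.9% of all genes, and 0 of 8 were called higher, against 28.9%. The median change of the 8 was −0.53. The number of falls depends on the scale. It was 4 of 8 under median-ratio scaling (median −0.45), 5 under quantile normalization (−0.58) and 5 with the trend on transcript length removed (−0.59). After rescaling without the 20 most abundant genes, 0 of 8 passed as lower, the median was −0.11, and *Hmgcs1* was called higher. Without WT-DES sample 1, on the deposited scale, 7 of 8 passed as lower, 6 were called and the median was −0.71, with 24.9% of all genes called lower.

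*Srebf2* (chromosome 15, 82147181 to 82205379, plus strand, GRCm38) encodes the SREBP2 regulator itself. It was at 50.7, 57.0, 50.3 and 54.3 FPKM in WT-veh samples 1 to 4 and at 53.5, 30.2, 29.8 and 30.2 in WT-DES samples 1 to 4. WT-DES samples 2 to 4 lay far below every WT-veh sample and close to each other, while sample 1 lay within the WT-veh range. The change was −0.59 (SE 0.15, limma adjusted p = 0.0021), and −0.80 (SE 0.08, limma adjusted p = 5.31e-07) without sample 1. It did not pass under quantile normalization or after rescaling without the 20 most abundant genes (−0.17, limma adjusted p = 0.257).

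*Hmgcs1* (chromosome 13, 119690379 to 119708260, plus strand) makes HMG-CoA, an early step of the pathway. Its FPKM was 19.8, 24.5, 21.7 and 26.2 in WT-veh and 42.0, 20.4, 25.8 and 26.96 in WT-DES. The groups overlapped, with sample 1 of WT-DES above all others. The change was 0.27 (SE 0.16, limma adjusted p = 0.132), and 0.08 (SE 0.10, limma adjusted p = 0.526) without that sample. It passed as higher under median-ratio scaling (0.35, limma adjusted p = 0.0497), quantile normalization (0.46, limma adjusted p = 0.0186) and rescaling without the 20 most abundant genes (0.69, SE 0.14, limma adjusted p = 0.000364).

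*Idi1* (chromosome 13, 8885501 to 8892451, plus strand) encodes the isomerase that makes the second isoprenoid unit of the pathway. It was the least abundant of the 8, at 2.71, 3.75, 3.79 and 6.35 FPKM in WT-veh and 4.13, 1.66, 1.67 and 2.32 in WT-DES. The groups overlapped only through WT-DES sample 1. The change was −0.59 (SE 0.24, limma adjusted p = 0.0353), and −0.80 (SE 0.22, limma adjusted p = 0.00394) without that sample. It passed the test with the same sign in 16 of 26 alternative analyses.

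*Fdft1* (chromosome 14, 63145150 to 63179578, minus strand) encodes squalene synthase, the first step committed to sterols. Its FPKM was 21.47, 23.1, 24.3 and 33.7 in WT-veh and 20.5, 14.5, 18.9 and 18.7 in WT-DES. Every WT-DES sample was below every WT-veh sample. Its change was −0.47 (SE 0.16, limma adjusted p = 0.0146), a ratio of means of 0.708 that is short of the 1.5-fold limit. Without sample 1 of WT-DES it was −0.52 (limma adjusted p = 0.0116), with a ratio of 0.678.

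*Sqle* (chromosome 15, 59315077 to 59331192, plus strand) encodes squalene epoxidase, a known point of control of the pathway. It was at 23.5, 31.7, 27.4 and 35.2 FPKM in WT-veh and at 28.5, 9.45, 13.9 and 14.1 in WT-DES. WT-DES samples 2 to 4 were all below the lowest WT-veh sample. The change was −0.89 (SE 0.24, limma adjusted p = 0.00381), the largest fall of the 8 genes on the deposited scale, and −1.18 (SE 0.18, limma adjusted p = 2.87e-05) without sample 1. It passed in 26 of 27 alternatives, the exception being the rescaling without the 20 most abundant genes (−0.48, limma adjusted p = 0.0587). Under quantile normalization the fall of *Idi1* (−1.07) was larger than that of *Sqle* (−0.86).

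*Lss* (chromosome 10, 76531588 to 76557138, plus strand) encodes lanosterol synthase, which closes the sterol rings. Its FPKM was 8.52, 10.4, 9.23 and 11.1 in WT-veh and 18.2, 5.41, 6.17 and 6.40 in WT-DES. 1 library decides its value, since sample 1 was above every WT-veh sample and samples 2 to 4 were below every one. With all samples the change was −0.26 (SE 0.29, limma adjusted p = 0.423), and without sample 1 it was −0.62 (SE 0.19, limma adjusted p = 0.00747).

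*Cyp51* (chromosome 5, 4081145 to 4104746, minus strand) encodes lanosterol demethylase. It was at 14.7, 21.4, 20.1 and 26.9 FPKM in WT-veh and at 18.2, 12.9, 8.74 and 12.8 in WT-DES. The groups overlapped through sample 1 of each. The change was −0.63 (SE 0.23, limma adjusted p = 0.0205), and −0.79 (SE 0.22, limma adjusted p = 0.00534) without WT-DES sample 1.

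*Dhcr7* (chromosome 7, 143823145 to 143848410, plus strand) encodes a reductase of the last step to cholesterol. Its FPKM was 10.4, 12.3, 12.4 and 15.3 in WT-veh and 13.5, 7.17, 7.59 and 8.84 in WT-DES. WT-DES samples 2 to 4 were below all WT-veh samples. The change was −0.43 (SE 0.17, limma adjusted p = 0.0301), and it passed in 17 of 27 alternatives. Without sample 1 it was −0.61 (SE 0.14, limma adjusted p = 0.00102) and was called.

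**Figure D2:**
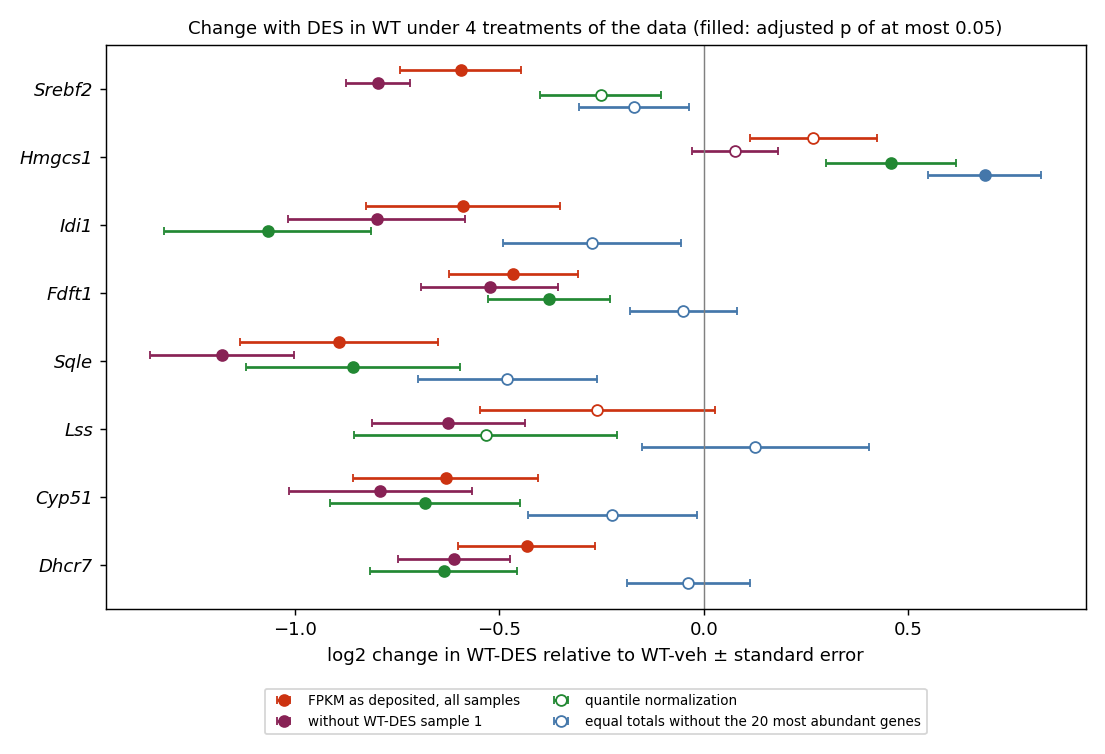
Change of each gene in WT-DES relative to WT-veh (log2(FPKM + 1) ± SE) in 4 analyses: FPKM as deposited, without WT-DES sample 1, after quantile normalization, and after rescaling to equal totals without the 20 most abundant genes. Filled points have an adjusted p of at most 0.05, and after the rescaling only *Hmgcs1*, at 0.69, is filled.

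Ratios of *Hmgcs1* to the other genes within a sample do not change when a library is scaled by 1 factor. Quantile normalization and removal of the length trend can change them, and the ratios given are on the deposited scale. The ratios were chosen after their values were seen and are given as a description without a test. *Hmgcs1* over *Sqle* was 0.842, 0.771, 0.793 and 0.746 in WT-veh and 1.48, 2.16, 1.85 and 1.91 in WT-DES, while it lay between 0.809 and 1.17 in αERKO-veh and between 0.813 and 0.966 in αERKO-DES. WT-DES was above all other groups with no overlap, its sample 1 included. *Hmgcs1* over *Srebf2* lay between 0.674 and 0.894 in WT-DES, above the 0.391 to 0.483 of WT-veh and the 0.451 to 0.514 of both αERKO groups. Of the 7 ratios of *Hmgcs1* to another gene of the 8, 6 did not overlap between WT-DES and WT-veh, the exception being that to *Lss*. Such separation was common, with 46.8% of the ratios of *Hmgcs1* to each of 15343 other tested genes above 0 in every sample free of overlap. Of the 21 ratios among the other genes, 2 did not overlap, those of *Sqle* to *Lss* and *Sqle* to *Dhcr7*, against 65.1% of the ratios of any 2 of those genes. Between αERKO-DES and αERKO-veh, 0 of 28 ratios were free of overlap, against 13.8%.

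In αERKO mice none of the 8 genes passed the test for a change with DES. In limma, 0 of 8 were called, against 1.49% of all genes, and 0 of 8 had an unadjusted p under 0.05. The 8 changes lay between 0.14 (*Srebf2* and *Hmgcs1*) and 0.26 (*Fdft1*), with a median of 0.18, which does not show that the levels were equal. *Sqle*, for example, was at 25.3, 23.3, 36.6 and 29.3 FPKM with vehicle and at 33.0, 28.9, 40.0 and 33.1 with DES. These ranges overlapped, and the change was 0.24 (SE 0.24, limma adjusted p = 0.561). *Srebf2* was at 52.1, 57.7, 65.7 and 57.6 FPKM with vehicle and at 60.7, 59.9, 70.7 and 64.9 with DES, with a change of 0.14 (SE 0.15, limma adjusted p = 0.598).

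The change with DES differed between the genotypes in 6 of 8 genes. The difference, the change in WT minus that in αERKO, was −1.13 for *Sqle* (SE 0.34, limma adjusted p = 0.00824), −0.87 for *Cyp51*, −0.80 for *Idi1*, −0.73 for *Srebf2*, −0.73 for *Fdft1* and −0.59 for *Dhcr7*. These 6 were called lower, against 26.9% of all genes (36.2% without the 1.5-fold limit), and 0 were called higher, against 29.6%. *Lss* (−0.42, SE 0.41, limma adjusted p = 0.36) and *Hmgcs1* (0.13, SE 0.22, limma adjusted p = 0.602) did not pass. The difference passed in 8 of 25 alternatives for *Idi1* and in 10 of 26 for *Dhcr7*, and both lost it under the replicate block and under median-ratio scaling. It passed in 20 of 26 for *Cyp51* and in 24 of 26 for *Srebf2*, which lost it under quantile normalization (−0.25, limma adjusted p = 0.298). Without WT-DES sample 1, 7 of 8 were called lower. After rescaling without the 20 most abundant genes, 0 passed as lower and *Hmgcs1* was called higher (0.68, limma adjusted p = 0.00602).

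**Figure D3:**
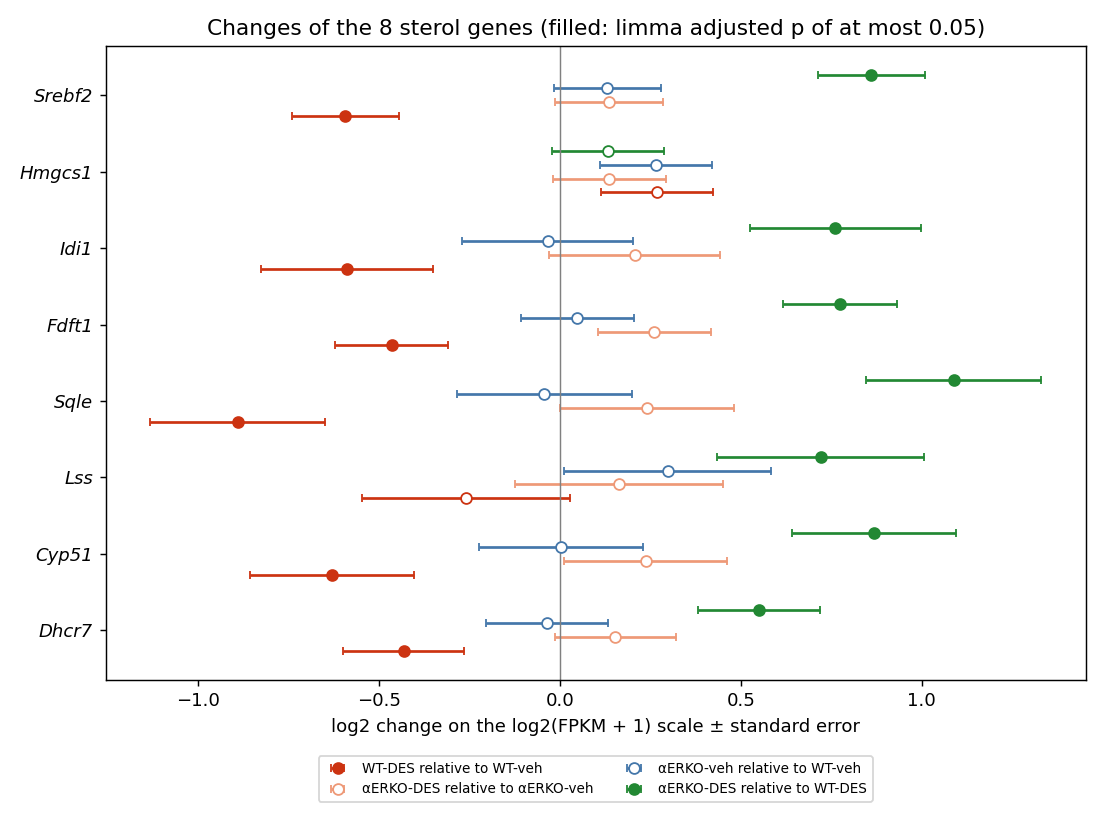
Changes of the 8 genes (log2(FPKM + 1) ± SE, limma, 4 samples per group) with DES in WT, with DES in αERKO, between the vehicle genotypes and between the DES-treated genotypes. Filled points have an adjusted p of at most 0.05, and these are found only in the comparisons that include WT-DES, on the deposited scale.

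Without DES, no gene of the 8 passed the test between the genotypes on the deposited scale. In limma, 0 of 8 were called between αERKO-veh and WT-veh, against 7.12% of all genes, and 0 had an unadjusted p under 0.05. Changes ran from −0.04 (*Sqle*) to 0.30 (*Lss*, SE 0.29), with a median of 0.02. *Hmgcs1*, at 25.5, 27.2, 29.6 and 28.9 FPKM in αERKO-veh against 19.8 to 26.2 in WT-veh, had a change of 0.26 (SE 0.16, limma adjusted p = 0.226). After rescaling without the 20 most abundant genes it passed as higher in αERKO-veh (0.44, SE 0.14, limma adjusted p = 0.0317).

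With DES in both genotypes, 7 of 8 genes were higher in αERKO-DES than in WT-DES, against 37.8% of all genes that passed in this direction. With the 1.5-fold limit, 6 of 8 were called higher, against 23.7% of all genes, and 0 were called lower, against 29.6%. The median change was 0.77 on the deposited scale and 0.44 after rescaling without the 20 most abundant genes, where 4 passed, 1 of them (*Sqle*) was called, and *Hmgcs1* turned to −0.24 (limma adjusted p = 0.13). *Srebf2*, at 59.9 to 70.7 FPKM in αERKO-DES against 29.8 to 53.5 in WT-DES, was higher by 0.86 (SE 0.15, limma adjusted p = 9.08e-05), with no overlap. *Sqle*, at 28.9 to 40.0 FPKM against 9.45 to 28.5, was higher by 1.09 (SE 0.24, limma adjusted p = 0.000838), also with no overlap. *Fdft1* was higher by 0.77 and *Cyp51* by 0.87, and these 4 genes passed under all 27 alternatives, the rescaling included. *Idi1* was higher by 0.76 and *Lss* by 0.72, and *Dhcr7* by 0.55, a ratio of means of 1.47 that is short of the limit. The difference in *Lss* passed in 17 of 27 alternatives, was lost under the replicate block and median-ratio scaling, and was 1.08 (SE 0.19, limma adjusted p = 0.000103) without WT-DES sample 1. *Hmgcs1*, at 27.9 to 32.5 FPKM against 20.4 to 42.0, had a change of 0.13 (SE 0.16, limma adjusted p = 0.453). Without WT-DES sample 1, 8 of 8 passed and 7 were called.

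Between αERKO-DES and WT-veh, the groups that differ in both genotype and treatment, 0 of 8 were called in limma, against 3.18% of all genes, and 1, *Hmgcs1*, had an unadjusted p under 0.05. *Hmgcs1* and *Srebf2* were higher in all 4 αERKO-DES samples than in any WT-veh sample, and *Hmgcs1* had a change of 0.40 (SE 0.16, limma adjusted p = 0.118) and *Srebf2* a change of 0.27 (SE 0.15, limma adjusted p = 0.271). In the fit without WT-DES sample 1, where the spread estimated over all groups was smaller for both genes, *Hmgcs1* (0.40, SE 0.10, limma adjusted p = 0.0189) and *Srebf2* (0.27, SE 0.07, limma adjusted p = 0.0305) passed as higher, short of the 1.5-fold limit. These comparisons share samples, so their values are given side by side and are not independent of each other. By mean FPKM as deposited, αERKO-DES was the highest of the 4 groups for all 8 genes and WT-DES the lowest for 7 of 8. After rescaling without the 20 most abundant genes, the mean of *Hmgcs1* was higher in WT-DES (34.5) than in αERKO-DES (28.5), and the mean of *Lss* was 10.7 in WT-DES and 8.80 in WT-veh. For *Hmgcs1* the order was αERKO-DES (30.6 ± 1.93, SD, n = 4), WT-DES (28.8 ± 9.27), αERKO-veh (27.8 ± 1.86) and WT-veh (23.1 ± 2.84). Of these neighbours, αERKO-DES and WT-DES, and αERKO-veh and WT-veh, did not pass the test, and the ranges of WT-DES and αERKO-veh overlapped. For *Sqle* it was αERKO-DES (33.7 ± 4.59), WT-veh (29.5 ± 5.07), αERKO-veh (28.6 ± 5.87) and WT-DES (16.5 ± 8.26). The first neighbours did not pass the test (limma adjusted p = 0.646 and 0.925), and the ranges of αERKO-veh and WT-DES overlapped.

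The other genes had narrow differences between the αERKO groups. *Idi1* was at 3.96 ± 1.11 FPKM (SD, n = 4) in αERKO-veh and 4.68 ± 0.923 in αERKO-DES. *Fdft1* was at 26.5 ± 5.33 and 31.7 ± 4.50, in the same order. *Lss* was at 12.6 ± 3.81 and 14.0 ± 2.83. In each of these genes αERKO-veh sample 3 was the highest of its group, as it was for *Cyp51* (21.1 ± 6.88 and 24.4 ± 3.84) and *Dhcr7* (12.3 ± 2.45 and 13.7 ± 0.852). Each difference was smaller than the SD of αERKO-veh.

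Most other enzymes of the pathway also fell on the deposited scale. Of 12 others, 8 were called lower after DES in WT (*Fdps*, *Tm7sf2*, *Mvd*, *Ebp*, *Mvk*, *Msmo1*, *Sc5d* and *Pmvk*) and 0 higher, against 23.9% and 28.9% of all genes, with a median of −0.81, while *Lbr*, a sterol reductase and nuclear envelope protein, passed as higher (0.50) short of the fold limit. *Fdps*, which makes farnesyl diphosphate, was at 14.0, 18.9, 20.04 and 27.9 FPKM in WT-veh and 11.8, 5.60, 6.05 and 6.70 in WT-DES. Its groups did not overlap, and the change was −1.33 (SE 0.26, limma adjusted p = 0.000324). *Tm7sf2*, a sterol reductase, changed by −1.24 (SE 0.14, limma adjusted p = 1.51e-06) and *Mvd*, mevalonate diphosphate decarboxylase, by −0.98 (SE 0.27, limma adjusted p = 0.00376).

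After rescaling without the 20 most abundant genes, 2 of the 12 were called lower (*Fdps* and *Tm7sf2*) and 2 higher (*Hsd17b7* and *Lbr*). Without WT-DES sample 1, on the deposited scale, 7 of the 12 were called lower, with *Pmvk* lost, and the median was −0.96.

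**Figure D4:**
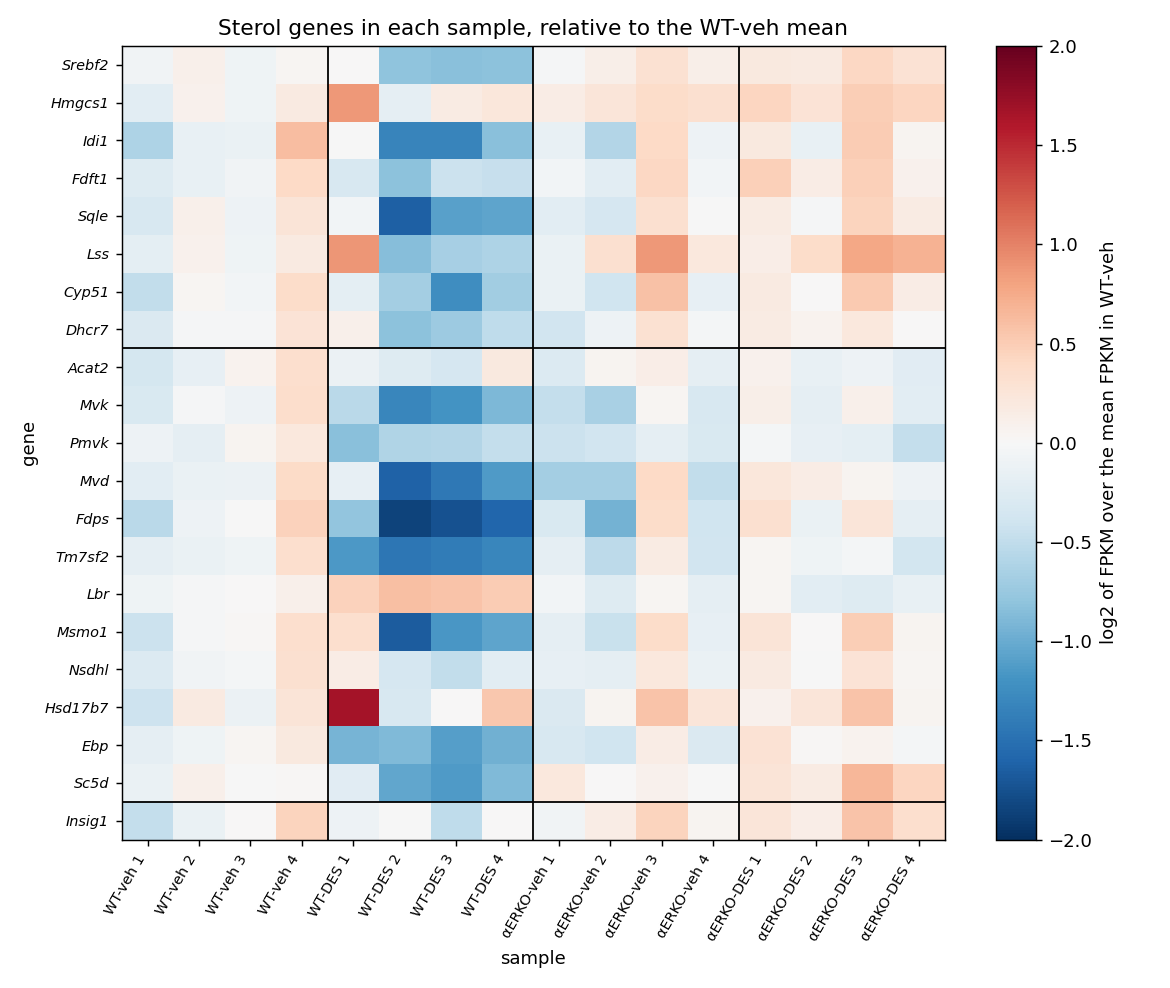
log2 of FPKM over the WT-veh mean (colour, cut at −2 and 2) for the 8 genes (top block), 12 other enzymes of the pathway (middle) and *Insig1* (bottom) in each of the 16 samples. WT-DES samples 2 to 4 are blue for most enzymes but paler for *Hmgcs1* and *Insig1*, and WT-DES sample 1 differs from them.

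A list of 6 genes, those that control SREBP cleavage and *Srebf1*, gave 0 calls after DES in WT, with or without WT-DES sample 1. Of all genes, 23.9% were called lower and 28.9% higher. The median of the 6 was −0.13 with that sample. *Mbtps1*, which encodes a protease that cuts SREBPs, passed as lower (−0.27, limma adjusted p = 0.000421) short of the fold limit. After rescaling without the 20 most abundant genes, *Mbtps2*, the other protease, was called higher and the median was 0.29. *Insig1*, the sterol-regulated anchor of SCAP, was at 13.2, 16.6, 18.4 and 25.01 FPKM in WT-veh and 17.1, 18.1, 12.8 and 18.4 in WT-DES, with a change of −0.11 (SE 0.17, limma adjusted p = 0.567). *Srebf1*, the paralogue that mainly drives fatty acid synthesis, changed by −0.12 (SE 0.13, limma adjusted p = 0.381), and its sign turned under quantile normalization (0.32) and under rescaling without the 20 most abundant genes (0.30).

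Uptake and intracellular transport genes moved mostly the other way from synthesis. Of 9 tested, 6 were called higher after DES in WT (*Lrp1*, *Lipa*, *Npc1*, *Vldlr*, *Mylip* and *Scarb1*) and 1 lower (*Npc2*), against 28.9% and 23.9% of all genes, with a median of 0.90. Those 6 were also called higher under each of 3 other scalings and without WT-DES sample 1. *Scarb1*, the HDL receptor, was at 44.6, 41.2, 40.0 and 46.5 FPKM in WT-veh and 57.1, 71.2, 58.3 and 72.4 in WT-DES, without overlap, and rose by 0.57 (SE 0.10, limma adjusted p = 9.31e-05). *Lrp1*, an endocytic receptor of lipoproteins, rose by 1.79, *Lipa*, the lysosomal lipase that frees cholesterol from its esters, by 1.71, and *Npc1*, which exports it from lysosomes, by 1.30. *Npc2*, the soluble partner of NPC1, fell by 1.16, from 171 ± 10.7 FPKM (SD, n = 4) to 75.8 ± 5.50.

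Genes of efflux, storage and oxysterols mostly rose. Of 11, 9 were called higher after DES in WT and 0 lower, against 28.9% and 23.9% of all genes, with a median of 1.09. Without WT-DES sample 1, 10 were tested and 8 of them were called higher. With all samples, *Nr1h2*, which encodes an LXR receptor, passed as lower (−0.47, limma adjusted p = 7.52e-05) short of the fold limit. Its mean went from 95.7 to 68.6 FPKM. *Nr1h3*, which encodes the other LXR receptor, was among the 9 called higher, from 6.25 to 16.5 FPKM. *Abca1*, the LXR target that exports cholesterol, was at 5.33, 4.69, 3.69 and 2.86 FPKM in WT-veh and 24.0, 29.9, 28.3 and 24.5 in WT-DES, without overlap. It rose by 2.45 (SE 0.21, limma adjusted p = 9.02e-08). *Soat1*, which esterifies cholesterol for storage, rose by 1.89 and *Abcg1*, another exporter, by 1.64. In αERKO mice, 0 of 11 passed with DES in limma, and 4 had an unadjusted p under 0.05.

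The branches beside sterols gave smaller counts. Of 6 isoprenoid genes, 2 were called lower after DES in WT, a share near the 23.9% of all genes, and the same 2 without WT-DES sample 1. They were *Dhdds* (dolichol synthesis, from 42.1 ± 0.941 to 20.6 ± 1.17 FPKM) and *Fntb* (protein farnesylation, log2 change −0.58). Under quantile normalization 4 of the 6 isoprenoid genes were called lower. Median-ratio scaling and rescaling without the 20 most abundant genes each gave 1 higher and 1 lower. *Pggt1b*, a subunit of a prenyl transferase, was the 1 gene of these pathway lists called between the vehicle genotypes, higher in αERKO-veh by 0.63 (SE 0.16, limma adjusted p = 0.015). Of 11 fatty acid genes, 5 were called higher after DES in WT (*Scd1* by 1.51, *Me1* by 1.47, *Acaca* by 1.21, *Fasn* and *Fads1*), against 28.9% of all genes, and 1 lower (*Scd2*, −0.60). Without WT-DES sample 1, 6 were called higher, with *Acss2* added.

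**Figure D5:**
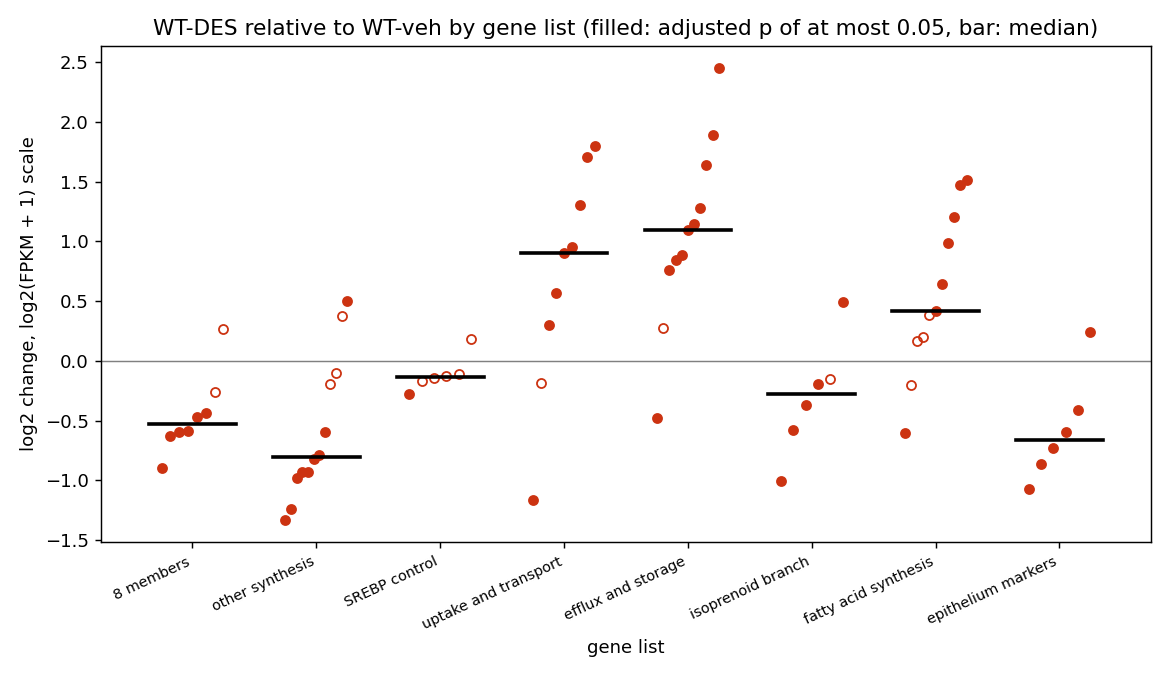
Change in WT-DES relative to WT-veh (log2(FPKM + 1), vertical axis) of each tested gene, by list, on the deposited scale, with the median of each list as a bar and filled points at an adjusted p of at most 0.05. The medians are −0.53 for the 8 genes, −0.81 for the other synthesis genes, 0.90 for uptake and transport, and 1.09 for efflux and storage.

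The mixture of cells moved with these results. In bulk tissue, fewer cells of a type and less RNA per cell cannot be told apart. After DES in WT, all 7 secretion genes were called lower (median −3.60), as were 4 of 6 epithelial markers (median −0.66), while all 10 leukocyte markers (median 2.04), all 6 fibroblast markers (median 1.33) and 4 of 7 adipocyte markers were called higher, where 23.9% of all genes were called lower and 28.9% higher. These counts were the same without WT-DES sample 1 except for the epithelial markers, of which 3 were then called lower. The epithelial markers summed to 1171 to 1300 FPKM in WT-veh and 682 to 945 in WT-DES, and the highest WT-DES sum was that of sample 1. Within the list the markers went both ways in that sample, with *Krt18* (381 FPKM) and *Krt8* (161) the highest of the group and *Epcam* (84.5) and *Cldn7* (73.9) the lowest. The leukocyte markers summed to 94.0 to 162 FPKM in WT-veh and 467 to 709 in WT-DES, and the fibroblast markers to 731 to 881 and 1916 to 2091. The 8 sterol genes summed to 152 to 209 FPKM in WT-veh and 102 to 198 in WT-DES. Under quantile normalization 0 epithelial markers were called lower, and after rescaling without the 20 most abundant genes 1 was (*Krt18*), while *Cdh1* was called higher in both. In αERKO mice with DES, 0 epithelial and 0 leukocyte markers passed in limma (3 and 0 had an unadjusted p under 0.05), 1 fibroblast marker, *Dcn*, was called lower, and 5 of 7 adipocyte and 4 of 6 skeletal muscle markers were called lower, against 1.49% of all genes called in either direction. Between the vehicle genotypes, *Lyz2* was lower in αERKO-veh, and *Tnnt3* and *Myl1* were higher. *Acta1* and *Ckm*, skeletal muscle markers, were called lower after DES in WT, with or without WT-DES sample 1, and their levels in WT-DES were highest in sample 1 (235 and 80.2 FPKM). The other 4 muscle markers were not highest there, with *Myl1* lowest in sample 1 (1.06 FPKM) and *Mylpf*, *Tnnt3* and *Myh4* within the range of samples 2 to 4. In WT-veh the muscle markers summed highest in sample 4 (1603 FPKM, the others 568 to 613). In αERKO-veh they summed highest in sample 3 (1854, the others 581 to 1326). These were also the samples of their groups with the highest sum of the sterol genes. In αERKO-DES the highest muscle sum was that of sample 1 (678), with 628 in sample 3. Of the 5 markers of steroid-making cells, *Star* was at 2.17 to 2.58 FPKM in WT-DES and 2.07 to 2.88 in WT-veh, while *Cyp17a1* (0.02 to 0.11), *Cyp11a1* (0.27 to 0.45), *Hsd3b1* and *Hsd3b6* were near 0 in WT-DES. The part of these cell types in the change of the sterol genes was not tested.

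Genes that followed the 8 most closely across all 16 samples, by Pearson's r with their mean standardized level and among 11160 genes with a mean FPKM of at least 5, were *Msmo1* (0.968), *Ttpal* (0.929), *Nadk* (0.921), *Actr1a* (0.921) and *Wsb2* (0.920). *Msmo1*, listed under its older symbol *Sc4mol*, is itself an enzyme of the pathway. Within groups, on deviations from the group means, the closest included *Msmo1* (0.966), *1810055G02Rik* (0.940), *2810004N23Rik* (0.939) and *Tuba4a* (0.939). These are descriptions over samples that share groups and libraries, and WT-DES sample 1, which stands apart, is among them.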

How the data were processed

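SV libraries were sequenced by the authors with an Illumina HiSeq system (paired reads, 126 nt), filtered at an average quality above 20, mapped to mm10 with TopHat 2.0.4 and quantified with Cufflinks 2.0.2, and the deposited FPKM values were used as they stand. The gene annotation of the table and any scaling between libraries are not given in the sources used here. FPKM hold no counts, so depth is unknown. Groups were taken from the sample titles.

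limma 3.58.1 in R 4.3.3 was run on log2(FPKM + 1) with 1 mean per group over 16 samples, eBayes with trend, and Benjamini-Hochberg adjustment. It covered 15988 genes whose mean FPKM exceeded 1 in any group. Calls needed an adjusted p no higher than 0.05, mean FPKM differing 1.5-fold or more (for the difference between genotypes, log2 of 1.5, 0.585) and a mean FPKM above 1. The 8 genes, the other lists and the markers were chosen with earlier results of these data known. Genes named are the 8, *Esr1*, set genes of the other lists (*Insig1*, *Scarb1*, *Srebf1* and *Abca1*), up to 3 called genes with the largest rise and fall in each pathway list, the 5 genes of highest likeness in each of 2 measures, and markers. Other genes stand where a count is spelled out. A few listed genes are not reported here, and the list counts omit them.

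Samples of a group correlated at r = 0.970 to 0.994 over log2 values and no pair was identical. The steps were tested on simulated data. Alternatives were a pseudocount of 0.1, no FPKM minimum or one of 5, a model of only 2 groups, no variance trend, sample weights, a replicate block, median-ratio and quantile scaling, rescaling to equal totals without the 20 most abundant genes, removal of a transcript length trend (GENCODE M21), an adjusted p of 0.01, no fold limit, and leaving out each sample. Ratios between genes were added after seeing the data. Coordinates are from GENCODE M21 on GRCm38, and promoters from RefSeq. Tables were built in pandas 2.3.3 and numpy 2.4.6 under Python 3.11.15, and plots in matplotlib 3.10.9.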

Additional observations from a re-analysis of the deposited data

Results flagged for a closer look

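The gap from the highest or lowest sample to its nearest neighbour, over the range of the group, was computed for 52 gene and group combinations, and 2 exceeded Dixon's critical value for 4 samples. Chance gives about 5 in 100. WT-DES sample 1 was far above the others for *Srebf2* (53.5 FPKM, ratio 0.982) and *Lss* (18.2 FPKM, ratio 0.922).

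The change with DES differed between WT and αERKO, by the interaction term in limma, for *Srebf2* (−0.73, adjusted p = 0.00604), *Idi1* (−0.80, adjusted p = 0.0447), *Fdft1* (−0.73, adjusted p = 0.00882), *Sqle* (−1.13, adjusted p = 0.00824), *Cyp51* (−0.87, adjusted p = 0.0246) and *Dhcr7* (−0.59, adjusted p = 0.0382), each more negative in WT on the deposited scale. Of these, *Idi1* passed in 8 of 25 alternatives, *Dhcr7* in 10 of 26, *Cyp51* in 20 of 26 and *Srebf2* in 24 of 26. The change was more positive in WT for *Scarb1* (0.54, adjusted p = 0.00277), *Abca1* (2.81, adjusted p = 1.22e-06) and *Esr1* (1.75, adjusted p = 4.66e-05).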

How the results depend on the processing

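For DES in WT, 3 of the 8 genes were called. The count was 1 without a minimum on FPKM, 1 under median-ratio scaling, 1 at an adjusted p of at most 0.01 and 6 without a fold limit. It was also 1 after rescaling without the 20 most abundant genes, where the gene was *Hmgcs1*, higher. Leaving out 1 sample gave 1 to 6 calls: 1 without WT-veh replicate 4 or WT-DES replicate 3, and 6 without WT-DES replicate 1. Between the DES-treated genotypes, 6 were called, and 1, *Sqle*, after the rescaling. For the difference in the change with DES, 6 were called, against 3 without a minimum on FPKM, 3 at an adjusted p of at most 0.01 and 1 after the rescaling (*Hmgcs1*, higher). Leaving out 1 sample gave 3 to 7, with 3 without WT-veh replicate 4, WT-DES replicate 3, αERKO-veh replicate 2 or αERKO-DES replicate 3. The cause of these differences was not tested. The 3 comparisons without calls kept 0 under every alternative. The log2 change of *Srebf1* with DES in WT turned to 0.32 under quantile normalization and 0.30 after the rescaling.

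Samples of the same number in different groups did not deviate together (r from −0.21 to 0.28 over all tested genes), so the numbers were not taken as pairs. With a replicate block the counts were 3 for DES in WT, 5 between the DES-treated genotypes and 4 for the difference in the change with DES. Under the block, *Idi1* and *Dhcr7* no longer passed for that difference. Sample depth is unknown.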
